A study of Homo sapiens with 18 samples.

Results

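ZFP36 (also called tristetraprolin), ZFP36L1 and ZFP36L2 form the ZFP36 family of mRNA decay factors. The 3 members were found by symbol among the 60642 gene symbols counted in each library, and all 3 were among the 15298 genes with enough reads to be tested. Proteins of this family carry zinc fingers that bind AU-rich elements in the 3′ untranslated regions (3′ UTRs) of mRNAs, and they recruit the CCR4-NOT deadenylase, which shortens the poly(A) tail and starts decay of the bound message. Many of the messages they are known to bind encode cytokines, chemokines and growth regulators, and the family's own mRNAs carry AU-rich elements as well. Signalling through p38 and its kinase MK2 phosphorylates the proteins and restrains them, and glucocorticoids are known to raise ZFP36 mRNA in several cell types.

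RNA was sequenced from MDA-MB-231 cells, an established human triple-negative breast cancer cell line, so that every group is the same single line in culture. Cells were transfected with SMART-pool siRNAs (mixtures of siRNAs that share a target) directed at HP1γ, the heterochromatin protein encoded by CBX3 (siHP1γ), at the arginine methyltransferase PRMT5 (siPRMT5), or at a non-specific sequence (siNS). Each of these 3 kinds of cell then received 100 nM of dexamethasone (Dex), a synthetic agonist of the glucocorticoid receptor (GR), or the same volume of its ethanol vehicle (Eth), for 8 h. This gave 6 conditions of 3 biological replicates, 18 libraries in all, made to ask which Dex-regulated genes depend on HP1γ and PRMT5.

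Library totals ran from 8682992 to 12472381 counts (median 10020976), which placed 170 to 457 counts per library on ZFP36, 2119 to 5638 on ZFP36L1 and 350 to 1999 on ZFP36L2. Depletion was seen in the libraries: PRMT5 mRNA was at 249 ± 20.0 CPM (counts scaled to a common library size; SD, n = 3) in siNS Eth cells and 7.41 ± 1.17 CPM in siPRMT5 Eth cells, and CBX3 fell from 256 to 9.89 CPM under siHP1γ. NR3C1, which encodes GR, was between 116 and 186 CPM in every library. The labelled line was checked against its markers: VIM lay between 5440 and 9590 CPM and CD44 between 506 and 857 CPM, whereas ESR1 and PGR had at most 2 counts and CDH1 at most 1 count in any library. Of the markers of other cells, PTPRC (leukocytes) had at most 2 counts, PECAM1 (endothelium) was between 1.1 and 8.15 CPM, and PDGFRB (fibroblasts) was between 0.662 and 4.59 CPM.

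The 3 genes lie on different chromosomes, and each has 2 exons in its canonical transcript (GENCODE release 44, hg38). ZFP36 is at chr19:39406847-39409412 on the plus strand, with a coding sequence for 326 residues and a 3′ UTR of 708 bases. ZFP36L1 is at chr14:68787660-68796253 on the minus strand, with 338 residues and a 3′ UTR of 1871 bases, and shares positions with a non-coding gene on the same strand, ENSG00000289626. ZFP36L2 is at chr2:43222402-43226606 on the minus strand, with 494 residues and a 3′ UTR of 1917 bases, and is overlapped by a non-coding gene on the opposite strand, ENSG00000287387. Whether reads were counted by strand is not given in the sources used here, so reads of ZFP36L2 and of its antisense neighbour cannot be told apart.

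Each member's own 3′ UTR holds 1 copy of the AU-rich nonamer UUAUUUAUU, the core that the family binds, and 3 copies of the shorter heptamer UAUUUAU, of which 1 lies inside the nonamer. Only the mRNA strand was searched. The nonamer occurred in 1157 of 11665 tested genes with an annotated 3′ UTR (9.92%), and the heptamer in 4379 of them (37.5%). The windows below show the nonamer in capitals with 10 bases on either side, as they stand in the family's own mRNAs, so that the site that the members have in common and its differing flanks can be seen (hg38, written as RNA, 5′ to 3′).
ZFP36, chr19:39409196-39409224, plus strand: uaugacgacuUUAUUUAUUcuaauaugau
ZFP36L1, chr14:68788077-68788105, minus strand: aacuguuggaUUAUUUAUUuuagaaauuc
ZFP36L2, chr2:43223448-43223476, minus strand: acuauuuaacUUAUUUAUUaucuugugaa

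The same element stands in most of the known target messages described further on. The next windows are from targets that carry it. CXCL8 (the neutrophil chemokine interleukin-8), IL1B (interleukin-1β) and PLAUR (the urokinase receptor) fell with Dex in siNS cells. The Dex responses of CXCL2 (a chemokine) and VEGFA (an angiogenic growth factor) differed between siNS and siPRMT5 cells. BIRC3, a target that rose with Dex, also holds 1 nonamer, and its window is not shown.
CXCL8, chr4:73742664-73742692, plus strand: auguaaaguaUUAUUUAUUugaaucuaca
IL1B, chr2:112829995-112830023, minus strand: gcuucccuauUUAUUUAUUuauuuguuug
PLAUR, chr19:43648601-43648629, minus strand: aauauucauaUUAUUUAUUuuauacuuac
CXCL2, chr4:74097582-74097610, minus strand: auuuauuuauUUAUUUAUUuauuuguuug
VEGFA, chr6:43786286-43786314, plus strand: uuguuaucauUUAUUUAUUggugcuacug
In CXCL2 the flanks continue the same AUUUA repeat, and its 3′ UTR held 5 nonamers and 8 heptamers, against 1 nonamer and 3 heptamers in each family member. The map of elements along the 3′ UTRs places these copies for the members and for the targets.

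In siNS cells Dex raised ZFP36 and ZFP36L2, and ZFP36L1 moved the same way by less than the required fold (comparison A, Dex against Eth in siNS cells). A gene was counted as Dex-regulated when the adjusted p of edgeR's quasi-likelihood test was under 0.01 and the change was at least 1.5-fold in either direction, and 2.71% of the 15298 tested genes passed in this comparison against 2 of the 3 members. Read counts are compared as CPM scaled by the trimmed mean of M-values (TMM), a measure of RNA share, and in bulk RNA a change in the number of cells that express a gene cannot be told apart from a change in RNA per cell.

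ZFP36 stood at 18.8, 17.4 and 20.3 CPM in the siNS Eth libraries and at 40.4, 26.8 and 32.5 CPM in the siNS Dex libraries. The 2 groups did not overlap, although the Dex libraries were spread more widely (18.8 ± 1.44 against 33.2 ± 6.81 CPM, SD, n = 3). The fitted change was 1.77-fold (log2 fold change 0.83, SE 0.116, 95% interval 0.59 to 1.06, edgeR adjusted p = 1.16e-05), and with any 1 library left out it stayed between 0.66 and 0.95 on the log2 scale.

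ZFP36L2 stood at 52.4, 46.1 and 46.2 CPM in siNS Eth and at 102, 90.8 and 107 CPM in siNS Dex. Every Dex library lay above every Eth library, and the change of 2.07-fold was the largest of the 3 members (log2 fold change 1.05, SE 0.0877, 95% interval 0.87 to 1.23, edgeR adjusted p = 1.41e-09). ZFP36L1, the member with the most reads, stood at 371, 342 and 348 CPM in siNS Eth and at 480, 392 and 511 CPM in siNS Dex. Its libraries did not overlap either, and the change of 1.30-fold (log2 0.38, SE 0.0867, edgeR adjusted p = 0.00406) was below the fold limit, with a 95% interval of 0.20 to 0.56. For each of the 3 members siNS Dex replicate 2 was the lowest of the siNS Dex libraries. An exact two-sided permutation test over 3 against 3 libraries cannot give a p under 0.1, and it gave 0.1 for all 3 members.

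**Figure D1:**
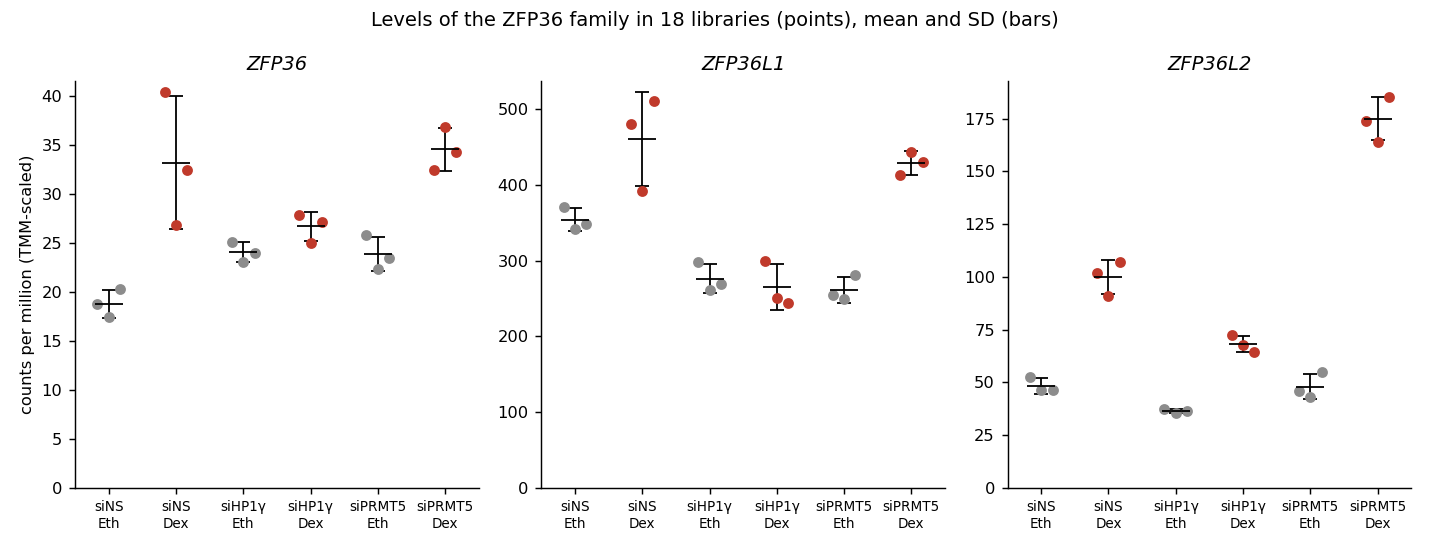
Levels of ZFP36, ZFP36L1 and ZFP36L2 (y axis, CPM scaled by TMM, separate linear scales from 0) in the 6 conditions, with 1 point per library and the mean with SD (n = 3) as bars. ZFP36L2 in siPRMT5 Dex cells, at 164 to 185 CPM, lies above every other condition, while ZFP36L1 in siHP1γ cells lies between 244 and 299 CPM with Eth and with Dex alike.

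In siHP1γ cells ZFP36L2 rose with Dex, while ZFP36 and ZFP36L1 did not pass the test. Of all tested genes 1.67% passed in this comparison, and 1 of the 3 members did. ZFP36L2 was at 37.1, 35.5 and 36.5 CPM with Eth and at 72.2, 67.5 and 64.5 CPM with Dex, 2 groups that did not overlap (1.87-fold, log2 0.90, SE 0.0902, edgeR adjusted p = 8.18e-08). ZFP36 was at 25.1, 23.1 and 24.0 CPM with Eth and at 27.9, 25.0 and 27.1 CPM with Dex. These overlapped, and the log2 fold change was 0.15 (SE 0.113, 95% interval -0.08 to 0.38, edgeR adjusted p = 0.54). ZFP36L1 was at 298, 261 and 269 CPM with Eth and at 299, 250.0 and 244 CPM with Dex. Its groups overlapped as well, with a log2 fold change of -0.06 and a 95% interval of -0.24 to 0.12 (edgeR adjusted p = 0.799).

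The difference between these Dex responses and those of siNS cells was tested as an interaction, siHP1γ minus siNS. None of the 3 members passed at an adjusted p under 0.05 by edgeR, where 0.399% of all tested genes did, although 2 of the 3 had an unadjusted p under 0.05 and the same 2 passed by DESeq2. For ZFP36 the difference was -0.67 on the log2 scale (SE 0.163, 95% interval -1.01 to -0.34, unadjusted p = 0.000339, edgeR adjusted p = 0.0618, DESeq2 adjusted p = 0.0189). For ZFP36L1 it was -0.44 (SE 0.123, 95% interval -0.70 to -0.19, edgeR adjusted p = 0.0954, DESeq2 adjusted p = 0.037). ZFP36L2, at -0.15 (95% interval -0.41 to 0.11, edgeR adjusted p = 0.581), was not separable between the 2 kinds of cell. Without siNS Dex replicate 2 the edgeR adjusted p was 0.0123 for ZFP36 and 0.0395 for ZFP36L1, and without siHP1γ Dex replicate 1 it was 0.0384 for ZFP36L1.

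Under siPRMT5 the Dex response of ZFP36L2 was the largest that any member showed. ZFP36L2 went from 45.8, 43.1 and 54.7 CPM with Eth to 174, 164 and 185 CPM with Dex, and ZFP36L1 rose as well, from 254, 249 and 281 CPM to 413, 444 and 430 CPM. Neither gene's groups overlapped, at 3.64-fold for ZFP36L2 (log2 1.86, SE 0.0874, 95% interval 1.68 to 2.04, edgeR adjusted p = 7.78e-15) and 1.64-fold for ZFP36L1 (log2 0.72, SE 0.0875, 95% interval 0.54 to 0.90, edgeR adjusted p = 7.61e-07). Of all tested genes 5.44% passed in this comparison, against 2 of the 3 members. ZFP36 went from 25.8, 22.3 and 23.5 CPM to 32.5, 36.9 and 34.3 CPM without overlap, a 1.45-fold change that fell just below the fold limit (log2 0.54, SE 0.113, 95% interval 0.30 to 0.77, edgeR adjusted p = 0.0011).

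ZFP36L2 was the member that passed the test for a difference in Dex response between siPRMT5 and siNS cells. The interaction was 0.81 on the log2 scale (SE 0.123, 95% interval 0.56 to 1.06, edgeR adjusted p = 0.00035), in a test that 3.80% of all tested genes passed. ZFP36L1 had an interaction of 0.33 (SE 0.123, 95% interval 0.08 to 0.59, adjusted p = 0.13) and ZFP36 of -0.29 (SE 0.163, 95% interval -0.62 to 0.05, adjusted p = 0.345), so that these 2 could not be separated from the responses of siNS cells. A direct comparison of the 2 depletions, added after the data were seen, set the response of siPRMT5 cells against that of siHP1γ cells. ZFP36L2 differed by 0.96 (SE 0.125, edgeR adjusted p = 2.73e-05) and ZFP36L1 by 0.78 (SE 0.124, edgeR adjusted p = 0.000375), and ZFP36 had 0.39 (SE 0.16, adjusted p = 0.316). Of all tested genes 2.10% passed, against 2 of the 3 members.

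**Figure D2:**
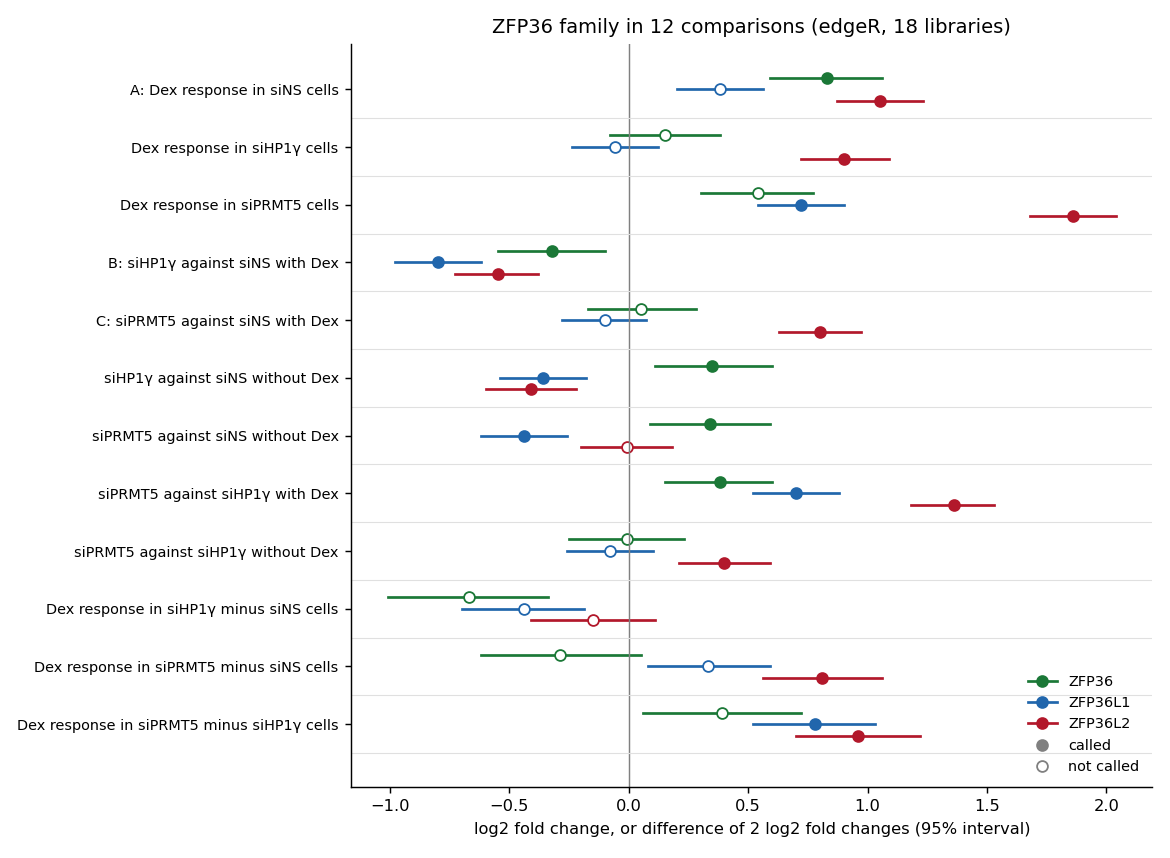
Log2 fold changes, or differences of 2 log2 fold changes for the interactions (x axis), of the 3 family members in 12 comparisons (y axis), with 95% intervals from the edgeR fit and filled points where the member passed the call rule. ZFP36L2 reaches 1.86 for Dex in siPRMT5 cells and ZFP36L1 is at -0.80 for siHP1γ against siNS with Dex.

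In the presence of Dex all 3 members were lower in siHP1γ cells than in siNS cells (comparison B, called at an adjusted p under 0.05 with no fold limit). This comparison passed 24.0% of all tested genes, 12.3% of them towards lower levels, so a call in it was common. ZFP36L1 had the largest difference: its siHP1γ Dex libraries lay at 57.4% of the fitted siNS Dex level (log2 fold change -0.80, SE 0.0873, 95% interval -0.98 to -0.62, edgeR adjusted p = 1.75e-07) and did not overlap with them. ZFP36L2 was at 68.1% (log2 -0.55, SE 0.0847, 95% interval -0.73 to -0.38, edgeR adjusted p = 2.3e-05), again with no overlap. ZFP36 had a log2 fold change of -0.32 (SE 0.11, edgeR adjusted p = 0.0339), with overlapping libraries (exact two-sided permutation p = 0.3). That call was lost without siNS Dex replicate 1 (-0.15, adjusted p = 0.343), without siNS Dex replicate 3 (adjusted p = 0.0636), without siHP1γ Dex replicate 2 (adjusted p = 0.12) or replicate 3 (adjusted p = 0.0519), and when libraries were scaled by their totals alone (-0.24, adjusted p = 0.115).

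Without Dex the members parted under siHP1γ: ZFP36L1 and ZFP36L2 were lower than in siNS cells and ZFP36 was higher. All 3 passed, as did 31.8% of all tested genes. ZFP36L1 was at 276 ± 19.4 CPM against 354 ± 15.3 CPM (SD, n = 3; log2 -0.36, SE 0.0873, edgeR adjusted p = 0.0026), and ZFP36L2 at 36.4 ± 0.794 against 48.2 ± 3.64 CPM (log2 -0.41, SE 0.0929, edgeR adjusted p = 0.00146). ZFP36 was at 24.1 ± 1.02 against 18.8 ± 1.44 CPM (log2 0.35, SE 0.12, edgeR adjusted p = 0.0263). No libraries overlapped between the groups for any of the 3. The ZFP36 call was lost when siNS Eth replicate 1 or 2, or siHP1γ Eth replicate 1 or 3, was left out (log2 0.29 to 0.39 over all leave-outs, adjusted p up to 0.11).

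PRMT5 depletion gave another order among the members. With Dex (comparison C), ZFP36L2 was 1.74-fold higher in siPRMT5 than in siNS cells (175 ± 10.3 against 99.9 ± 8.23 CPM, SD, n = 3; log2 0.80, SE 0.0823, 95% interval 0.63 to 0.97, edgeR adjusted p = 1.58e-08). ZFP36L1 (log2 -0.10, 95% interval -0.28 to 0.07, adjusted p = 0.356) and ZFP36 (log2 0.05, 95% interval -0.17 to 0.28, adjusted p = 0.726) did not pass. This test called 42.4% of all tested genes, and 1 of the 3 members. Without Dex, ZFP36L2 did not pass (log2 -0.01, 95% interval -0.20 to 0.18, adjusted p = 0.963), ZFP36L1 was lower at 261 ± 17.3 against 354 ± 15.3 CPM (log2 -0.44, SE 0.0876, edgeR adjusted p = 0.000236), and ZFP36 was higher at 23.9 ± 1.75 against 18.8 ± 1.44 CPM (log2 0.34, SE 0.121, edgeR adjusted p = 0.0253). Here 42.1% of all tested genes and 2 of the 3 members passed. The ZFP36 call was lost when siNS Eth replicate 1 or 2, or siPRMT5 Eth replicate 1, was left out (adjusted p up to 0.108).

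Between the 2 depletions, with Dex, all 3 members were higher in siPRMT5 than in siHP1γ cells, in a test that called 49.9% of all tested genes. The fold was 2.56 for ZFP36L2 (log2 1.36, edgeR adjusted p = 1.04e-12), 1.62 for ZFP36L1 (log2 0.70, edgeR adjusted p = 2.96e-07) and 1.30 for ZFP36 (log2 0.38, edgeR adjusted p = 0.00609), with no overlap of libraries for any of them. Without Dex, ZFP36L2 alone of the 3 was higher in siPRMT5 cells (1.32-fold, log2 0.40, edgeR adjusted p = 0.000951), where 48.4% of all tested genes passed, and ZFP36L1 and ZFP36 had log2 fold changes of -0.08 and -0.01. Comparisons A, B and C all use the siNS Dex libraries, and the comparisons of siPRMT5 and siHP1γ cells reuse the same libraries, so these directions are not independent of each other.

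Ordered by level, ZFP36 was lowest in siNS Eth cells (18.8 CPM). It was next at 23.9 CPM in siPRMT5 Eth, 24.1 CPM in siHP1γ Eth and 26.7 CPM in siHP1γ Dex cells, neighbours that did not differ beyond their spread. Above these came siNS Dex (33.2 CPM) and siPRMT5 Dex (34.6 CPM), which also did not differ. ZFP36L1 formed a low group of siPRMT5 Eth (261 CPM), siHP1γ Dex (265 CPM) and siHP1γ Eth (276 CPM), then siNS Eth (354 CPM), then siPRMT5 Dex (429 CPM) and siNS Dex (461 CPM). Within the low group and within the top pair the libraries overlapped. ZFP36L2 rose from siHP1γ Eth (36.4 CPM) through siPRMT5 Eth (47.9 CPM) and siNS Eth (48.2 CPM), which overlapped, to siHP1γ Dex (68.0 CPM), siNS Dex (99.9 CPM) and siPRMT5 Dex (175 CPM), and the libraries of these last 3 conditions did not overlap with each other.

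Levels of different genes were set side by side per kilobase of annotated exon (CPM per kb). Whether the library kit reads whole transcripts or their 3′ ends is not given in the sources used here, and with 3′ reads a length correction would lower the longer genes too far. On this scale ZFP36L1 was the most abundant member in every condition, with 70.8% of the family's summed level in siNS Eth cells and 50.6% ± 1.32 (SD, n = 3) in siPRMT5 Dex cells. The ratio of ZFP36L1 to ZFP36L2 fell from 4.19 ± 0.135 in siNS Eth to 1.41 ± 0.119 in siPRMT5 Dex cells, as the share of ZFP36L2 went from 16.9% to 36.1% ± 2.02. The fall was seen on other scales, but with higher ratios. They were 7.34 and 2.46 without a length correction, and 8.99 and 3.02 per kb of canonical transcript. The shares depend on the length used in the same way. The order of the other 2 members depended on the condition: ZFP36L2 was at 2.71 ± 0.286 times ZFP36 in siPRMT5 Dex cells and at 0.809 ± 0.0171 times ZFP36 in siHP1γ Eth cells, and without the length correction the latter ratio was 1.51.

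Summed over the family, the level per kb was 77.3 ± 3.49 in siNS Eth and 115 ± 14.2 in siNS Dex cells. In siHP1γ cells it was 64.7 ± 3.70 with Eth and 72.8 ± 6.11 with Dex. In siPRMT5 cells it was 65.4 ± 4.40 with Eth and 131 ± 3.26 with Dex, the highest mean of the 6 conditions (each SD, n = 3). On this scale the siHP1γ Dex sum did not exceed that of siNS Eth cells, and their SD ranges overlapped. The sum and the overlap depend on the length used, 6466 bases of exon for ZFP36L1 against 3017 in its canonical transcript. Of the members, ZFP36 and ZFP36L2 were higher in every siHP1γ Dex library than in any siNS Eth library, and ZFP36L1 was lower.

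**Figure D3:**
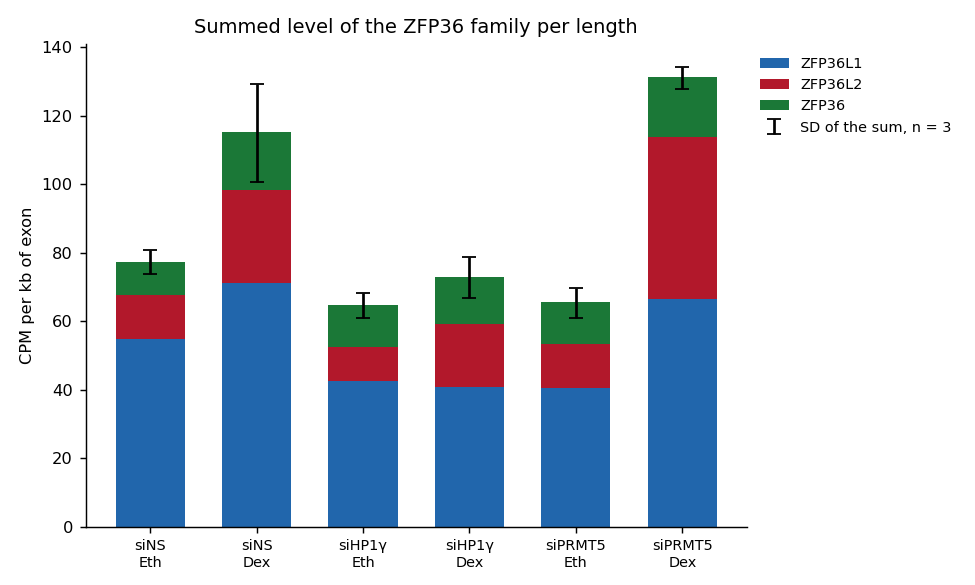
Summed level of the 3 members (y axis, CPM per kb of exon, from 0) in the 6 conditions, stacked by member, with the SD of the sum over 3 libraries as bars. ZFP36L1 is the thickest layer in each condition, and the ZFP36L2 layer makes up 36.1% of the column in siPRMT5 Dex cells against 16.9% in siNS Eth cells.

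The genes whose pattern over the 6 conditions was most like each member's were found by the root mean square difference of centred log2 means, over the 11410 genes whose mean level reached 5 CPM. For ZFP36 these were PYGB (0.0693), TANC2 (0.0742) and LTBR (0.0833), and for ZFP36L1 they were APBB2 (0.0762), USP31 (0.0958) and AC093535.2 (0.0997). For ZFP36L2 they were KLF15 (0.161), TTLL11 (0.162) and SGK1 (0.188). The measure is not scaled to the size of a gene's changes, so it runs larger for genes that vary more. Centred log2 means ran from -0.89 to 1.35 for ZFP36L2, from -0.47 to 0.39 for ZFP36 and from -0.34 to 0.47 for ZFP36L1. No member was among another's 3 closest genes. By likeness to ZFP36, ZFP36L1 ranked 3149 and ZFP36L2 ranked 10155 of 11410. By likeness to ZFP36L1, ZFP36 ranked 1743 and ZFP36L2 ranked 10128. By likeness to ZFP36L2, ZFP36 ranked 201 and ZFP36L1 ranked 248. Because the measure is not scaled, distances and ranks cannot be compared between members. The likeness is a description over 18 libraries that all genes share.

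The family's known target messages were taken as a list of 31 mRNAs with reported AU-rich regulation, drawn up, like the lists that follow, with earlier results of these data known. Of these 23 were tested, and TNF, CSF2, IL2, IL3, IL10, CCL2, CCL20 and IER3 had too few counts. The nonamer was found in the 3′ UTR of 17 of the 23 (73.9%) and the heptamer in 22 (95.7%). Dex in siNS cells changed 6 of the 23, with 5 lower and 1 higher, where 1.06% of all tested genes were called lower and 1.65% higher. The 5 that fell were the inflammatory and invasion genes CXCL8, IL1A, IL1B, PLAU (urokinase) and PLAUR, and the 1 that rose was BIRC3 (an inhibitor of apoptosis). The median log2 fold change of the list was -0.19, against 0.0 for all tested genes.

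BIRC3 went from 33.8 ± 2.02 to 238 ± 15.7 CPM with Dex in siNS cells (SD, n = 3; log2 2.82, SE 0.117, edgeR adjusted p = 1e-15). Its direction was that of ZFP36 and ZFP36L2, and its 3′ UTR holds the nonamer too. CXCL8 went from 25.0 ± 1.67 to 11.9 ± 0.0522 CPM (log2 -1.07, SE 0.122, edgeR adjusted p = 4.47e-07). PLAUR went from 129 ± 11.2 to 56.7 ± 4.76 CPM (log2 -1.18, SE 0.0943, edgeR adjusted p = 6.55e-10) and PLAU from 294 ± 22.1 to 143 ± 4.87 CPM (log2 -1.05, SE 0.072, edgeR adjusted p = 3.47e-11). IL1A and IL1B fell by 0.76 and 0.81 on the log2 scale. IL1A and PLAU hold no nonamer, with 3 and 2 heptamers.

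With HP1γ depleted, more of the targets were higher than lower. Against siNS cells with Dex, 12 of the 23 were higher and 1 lower (median log2 0.29), where 11.7% and 12.3% of all tested genes were called. Without Dex, 15 of the 23 were higher and 2 lower (median 0.47), against 16.5% and 15.2% of all tested genes. ZFP36L1 and ZFP36L2 were lower in the same cells in both settings and ZFP36 was higher in siHP1γ cells without Dex; the part of the family in these target levels was not tested. With libraries scaled by totals alone, 69.2% of the calls over all genes with Dex were higher, against 48.7% under TMM, and 63.8% against 52.1% without Dex, a shift of 0.086 and 0.069 in the median log2 fold change of all genes. Over the 7 other ways of processing, the list held 10 to 13 higher and 1 to 2 lower with Dex and 13 to 18 higher and 2 lower without it. With 1 library left out at a time, 7 to 12 were higher with Dex and 14 to 17 without. The count of 7 was without siNS Dex replicate 2. Leaving out that library also lowered the calls over all genes, from 1787 to 1220 higher and from 1882 to 1554 lower.

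The largest rises against siNS cells with Dex were in the chemokines CXCL1 and CXCL8. CXCL1 was at 19.4 ± 2.45 CPM in siHP1γ Dex cells against 6.13 ± 1.02 CPM in siNS Dex cells (log2 1.67, SE 0.148, edgeR adjusted p = 5.29e-09). CXCL8 was at 35.3 ± 5.57 against 11.9 ± 0.0522 CPM (log2 1.57, SE 0.117, edgeR adjusted p = 2.61e-10). MYC, the growth regulator, was the single target that was lower (636 ± 54.2 against 862 ± 37.6 CPM, log2 -0.44, SE 0.0676, edgeR adjusted p = 2.48e-05), and its 3′ UTR holds 1 heptamer and no nonamer. Among the 17 targets with a nonamer 10 were higher and 0 lower with Dex, and 11 higher and 0 lower without Dex. Among the 6 without a nonamer the counts were 2 higher and 1 lower with Dex, and 4 higher and 2 lower without it.

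In siPRMT5 cells the targets were split. With Dex, 10 of the 23 were higher and 4 lower than in siNS cells (median log2 0.18), where 20.6% and 21.9% of all tested genes were called. The largest rise was in PTGS2, which encodes cyclooxygenase-2 (log2 0.76, SE 0.298, edgeR adjusted p = 0.0417, passed in 18 of 24 alternative settings). PTGS2 was near the floor, with 6 to 33 counts per library and overlapping libraries (2.04 ± 0.584 against 1.17 ± 0.45 CPM, SD, n = 3). Next came CXCL2, at 8 to 59 counts per library (log2 0.63, SE 0.225, edgeR adjusted p = 0.026, passed in 20 of 24), and PLAUR (log2 0.63, SE 0.095, edgeR adjusted p = 7.38e-06). The 2 largest falls were IL1A (log2 -0.78, SE 0.0921, edgeR adjusted p = 1.91e-07) and E2F1, a cell cycle transcription factor (log2 -0.77, SE 0.103, edgeR adjusted p = 1.26e-06). Without Dex, 10 were higher and 8 lower (median 0.11), against 20.6% and 21.6% of all tested genes. In siPRMT5 cells Dex itself raised 4 targets and lowered 4, where 2.69% and 2.75% of all tested genes were called, and CXCL8 among the lowered passed in 12 of 25. These settings are the 7 other ways of processing and the 18 left-out libraries in which the gene could be tested. In siHP1γ cells it raised 2 and lowered 4, against 1.01% and 0.66% of all tested genes.

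The Dex responses of 7 of the 23 targets differed between siPRMT5 and siNS cells, 5 of them upward and 2 downward, against 1.58% and 2.23% of all tested genes. CXCL2 went from 1.36 ± 0.68 to 4.55 ± 1.04 CPM with Dex in siPRMT5 cells and from 2.76 ± 0.66 to 2.94 ± 0.189 CPM in siNS cells (SD, n = 3; interaction 1.64, SE 0.377, edgeR adjusted p = 0.0122). VEGFA went from 140 ± 7.14 to 79.8 ± 1.74 CPM and from 84.5 ± 6.44 to 70.7 ± 2.77 CPM, respectively (interaction -0.56, SE 0.0976, edgeR adjusted p = 0.00148). The other upward interactions were CXCL1 (0.97), IL1A (0.73), PLAU (0.56) and MYC (0.45), and the other downward one was PIM1 (-0.64). IL1A and PLAU fell with Dex in siNS cells and changed less in siPRMT5 cells (33.5 to 32.8 and 230 to 165 CPM). That for CXCL1 passed in 17 of the 25 settings. Between siHP1γ and siNS cells a single target differed in its Dex response, CXCL8 (0.73, SE 0.159, edgeR adjusted p = 0.0361, passed in 17 of the 25). Its fall with Dex was smaller in siHP1γ cells (44.6 to 35.3 CPM).

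The machinery through which the family acts was tested as further lists. Among 18 subunits and partners of the deadenylases, Dex in siNS cells changed BTG1 alone, an antiproliferative protein that binds the deadenylase (194 ± 11.7 to 124 ± 8.85 CPM, SD, n = 3; log2 -0.64, SE 0.0745, edgeR adjusted p = 5.63e-07). That comparison called 2.71% of all tested genes. Against siNS cells with Dex, 3 were higher and 2 lower in siHP1γ cells, where 24.0% of all tested genes were called, a share near that of the list. Over the 7 other ways of processing 2 to 5 were higher and 1 to 2 lower. The largest of these were BTG2 (log2 0.99, SE 0.15) and PAN2 (0.38) among the higher and the deadenylase subunit CNOT6 (-1.06, SE 0.111) and TOB1 (-0.25) among the lower, of which PAN2 passed in 17 and TOB1 in 15 of the 25 settings. CNOT6 was at 50.9 ± 8.38 CPM there and at 107 ± 3.61 CPM in siNS Dex cells. In siPRMT5 cells 6 were higher, led by TOB1 (log2 0.75) and CNOT11 (0.68), and 2 lower, CNOT8 (-0.69) and CNOT9 (-0.36), again near the share of all tested genes called (42.4%). TOB2 had an interaction of -0.47 with siPRMT5.

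The 19 decapping factors and exonucleases, which degrade deadenylated mRNAs, had 0 calls for Dex in siNS cells by edgeR and 0 by DESeq2, with 4 at an unadjusted p under 0.05. Of all tested genes 2.71% were called by edgeR in that comparison, so 0 of 19 does not set the list apart. In siHP1γ cells with Dex, EXOSC9 was higher (log2 0.27, passed in 19 of the 25 settings) and DDX6 (-0.38) and EXOSC10 (-0.27) were lower than in siNS cells, where 24.0% of all tested genes were called. In siPRMT5 cells with Dex 5 were higher, led by the decapping enzyme DCP2 (log2 1.09, SE 0.0977) and DCP1A (0.62), and EXOSC6 (-0.42) was lower, a smaller share of the 19 than the 42.4% of all tested genes.

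Of 16 kinases, phosphatases and 14-3-3 proteins that act on the family 15 were tested, and YWHAE had too few counts. Dex in siNS cells changed DUSP1 alone, the phosphatase that switches off p38, from 76.8 ± 4.18 to 219 ± 11.1 CPM (log2 1.51, SE 0.075, edgeR adjusted p = 4.46e-14). Of all tested genes 1.65% were called higher in that comparison. DUSP1 had a larger Dex response in siPRMT5 than in siNS cells, with an interaction of 1.22 (SE 0.108, edgeR adjusted p = 7.96e-08). In siPRMT5 cells it went from 37.4 ± 2.25 to 249 ± 23.1 CPM, so its Eth level was below that of siNS cells. ZFP36L2 also had a larger response there, but its Eth levels were 47.9 CPM in siPRMT5 and 48.2 CPM in siNS cells. With Dex, siHP1γ cells had 1 of the 15 higher, MAP2K3 (log2 0.38), and 5 lower, led by MAPK14, which encodes p38α (-0.68, SE 0.0804), and DUSP1 (-0.65), against 11.7% and 12.3% of all tested genes. In siPRMT5 cells 6 were higher and 7 lower, against 20.6% and 21.9% of all tested genes. MAP2K6 led upward (log2 1.84), at a low level of 2.56 ± 0.564 against 0.707 ± 0.223 CPM. The 14-3-3 gene YWHAQ (-0.70) and MAPKAPK3 (-0.67) led downward.

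Of 11 other regulators of AU-rich and stem-loop elements 10 were tested, and ZC3H12B had too few counts. Dex in siNS cells raised the endonuclease genes ZC3H12A (4.12 ± 0.733 to 7.54 ± 1.98 CPM, log2 0.89, edgeR adjusted p = 0.00608, passed in 21 of the 25 settings) and ZC3H12C (101 ± 7.41 to 155 ± 5.07 CPM, log2 0.61, passed in 23 of the 25). That comparison called 1.65% of all tested genes higher. In siHP1γ cells with Dex 0 were higher, and RC3H1 (log2 -0.49) and RC3H2 (-0.37) were lower, against 11.7% and 12.3% of all tested genes. In siPRMT5 cells with Dex 5 were higher, led by ZC3H12A (0.75) and RC3H1 (0.50), and KHSRP, a decay-promoting AU-rich binding protein, was lower (-1.09, SE 0.0729), against 20.6% and 21.9% of all tested genes.

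The members were set beside 5 genes known to respond to glucocorticoids in most cells, TSC22D3, FKBP5, PER1, KLF9 and DUSP1. All 5 rose with Dex in each of the 3 kinds of cell, with a median log2 fold change of 2.54 in siNS, 1.79 in siHP1γ and 2.99 in siPRMT5 cells. Of all tested genes 1.65%, 1.01% and 2.69% were called higher, respectively. In siHP1γ cells with Dex 4 of the 5 were lower than in siNS cells, and in siPRMT5 cells all 5 were higher, where 12.3% of all tested genes were called lower and 20.6% higher, respectively. For ZFP36L2 the same comparisons gave log2 fold changes of 1.05, 0.90, 1.86, -0.55 and 0.80 in that order. ZFP36 had 0.83, 0.15, 0.54, -0.32 and 0.05, and ZFP36L1 had 0.38, -0.06, 0.72, -0.80 and -0.10. Neither ZFP36 nor ZFP36L1 was called for Dex in siHP1γ cells or for siPRMT5 against siNS cells with Dex.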

How the data were processed

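Gene counts for 18 libraries were analysed as deposited: per the labels and the study's methods the authors aligned reads to hg38 with Bowtie2 2.4.2, counted them per gene with HTSeq 0.9.1 and compared conditions with DESeq2 2.11.40.7. The annotation, the strand setting and the kind of library kit are not given in the sources used here. The authors' own comparison columns hold log2 fold changes and p-values and were not used. Groups came from the sample labels.

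Counts were fitted with edgeR 4.0.16 (R 4.3.3, TMM scaling, filterByExpr, quasi-likelihood test, 12 residual degrees of freedom) over all 18 libraries, with Benjamini-Hochberg adjustment over 15298 genes. Dex responses were called at an adjusted p under 0.01 and 1.5-fold, and depletions and interactions at an adjusted p under 0.05. Single values were also compared by an exact permutation test (scipy 1.17.1). In simulated data 200 genes above a level limit were changed by 1 on the log2 scale, and all other genes were left unchanged. For Dex in siNS cells the fit recovered 197 with 0 false calls. It recovered 198 with 13 false calls for siHP1γ against siNS cells with Dex, and 190 with 11 false calls for the siPRMT5 interaction. Smaller changes, such as most of those of the members, and many changes at a time were not simulated.

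Gene models and sequences came from GENCODE 44; 88.6% of tested symbols matched. Level per kb used the union of exons, and likeness used log2(CPM + 0.5). Members and gene lists (deadenylation, decapping and exonucleases, kinases and 14-3-3 proteins, other regulators, known targets, glucocorticoid genes) were chosen with earlier results of these data known; 1 target gene is not reported here. Named list genes were those called for Dex in siNS cells or in an interaction with siNS cells, and up to 2 largest rises and falls in comparisons B and C; the TMM, filter, scaling, tool, block and left-out-library alternatives are given at the end.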

Additional observations from a re-analysis of the deposited data

Results flagged for a closer look

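Dex responses that differed between kinds of cell were tested by the difference itself (edgeR's quasi-likelihood test, adjusted p under 0.05). They were found for 2 members and, in the tests against siNS cells alone, for 14 genes of the lists. Between siPRMT5 and siHP1γ cells the difference was positive for 5 of the 23 tested targets and negative for 2, against 1.29% and 0.811% of all tested genes. In that test all 5 glucocorticoid genes were higher, as was DUSP1 alone of the 15 tested kinase, phosphatase and 14-3-3 genes. No gene of the other lists was called. Among the members, ZFP36L2 responded more strongly in siPRMT5 than in siNS cells (difference of log2 fold changes 0.81) and than in siHP1γ cells (0.96), and ZFP36L1 responded more strongly in siPRMT5 than in siHP1γ cells (0.78). The comparison with siHP1γ cells was added after the data were seen.

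Between siPRMT5 and siNS cells the difference in Dex response was positive for the chemokines CXCL2 (1.64) and CXCL1 (0.97). It was also positive for IL1A (0.73), PLAU (0.56) and MYC (0.45), and for the glucocorticoid-responsive genes DUSP1 (1.22) and FKBP5 (0.84). For PLAU this was a smaller fall with Dex (294 to 143 CPM in siNS, 230 to 165 CPM in siPRMT5 cells). IL1A fell from 94.9 to 56.2 CPM in siNS cells and was at 33.5 and 32.8 CPM in siPRMT5 cells. The difference was negative for PIM1 (-0.64), VEGFA (-0.56) and TOB2 (-0.47). Between siHP1γ and siNS cells it was positive for CXCL8 (0.73), a smaller fall (44.6 to 35.3 CPM, against 25.0 to 11.9 CPM in siNS cells). It was negative for TSC22D3 (-1.0), PER1 (-0.75) and KLF9 (-0.69).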

How the results depend on the processing

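Each of the 36 results for the members (3 genes in 12 comparisons) was computed in 7 other ways and with each of the 18 libraries left out. In 30 of the 36 the call stayed in all 25 settings. The sign turned in 3 of these, none of them called: ZFP36 in siPRMT5 against siNS cells with Dex (-0.07 to 0.23 over left-out libraries), ZFP36L2 in the same cells without Dex (-0.12 to 0.06), and ZFP36 in siPRMT5 against siHP1γ cells without Dex (-0.05 to 0.05). ZFP36 in siHP1γ minus siNS cells passed by DESeq2 (-0.67), without the count filter (-0.69) and with a replicate block (-0.67, adjusted p = 0.0476), and ranged from -0.79 to -0.50 over left-out libraries. ZFP36L1 in the same test passed by DESeq2 (-0.44) and without the filter (-0.46), and ranged from -0.54 to -0.35. The number of genes passing it was 314 by DESeq2, 374 without the filter, 94 with the block and 20 to 186 over left-out libraries, against 61 (20 to 26 without replicate 1 or 3 of siNS Eth, siNS Dex or siHP1γ Eth, and 186 without siNS Eth replicate 2). For siPRMT5 minus siNS cells it was 319 to 897 over left-out libraries, against 582 (319 to 355 without replicate 1 or 3 of siNS Eth or siNS Dex or without replicate 2 of siPRMT5 Eth or siPRMT5 Dex, and 897 without siHP1γ Dex replicate 1). ZFP36 in siHP1γ against siNS cells with Dex was no longer called with library totals alone (-0.24) or with only the libraries compared (-0.32, adjusted p = 0.0808), and ranged from -0.46 to -0.15. ZFP36 ranged from 0.29 to 0.39 in siHP1γ and from 0.28 to 0.40 in siPRMT5 against siNS cells without Dex. For Dex in siPRMT5 cells it ranged from 0.49 to 0.60, passing the fold limit without siPRMT5 Eth replicate 1 or siPRMT5 Dex replicate 1. The ratio of ZFP36L2 to ZFP36 in siHP1γ Eth cells was 1.51 without a length correction. The causes were not tested.

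Whether replicate numbers pair the libraries was not settled. Of 45 same-number correlations 9 were over 0.1, in a range of -0.227 to 0.366, and 11 of 18 libraries correlated best with their own number. With a replicate block 94 genes passed for siHP1γ minus siNS cells, against 61 without it, and ZFP36 was among them. The replicate block changed no other member's call.

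At 170 to 457 counts, ZFP36 carries the widest intervals of the 3 members. Changes are relative to the other mRNAs of a library. mRNA levels do not separate synthesis from decay, and protein or its phosphorylation was not measured. Libraries come from 1 cell line, 1 siRNA pool per target and 1 time of treatment.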

Other observations

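Over all 11665 tested genes with an annotated 3′ UTR, those with the nonamer had longer 3′ UTRs than the rest (median 3178 against 1280 bases) and a similar level (median 38.6 against 35.7 CPM). With Dex in siNS cells 2.42% of the 1157 genes with a nonamer were called lower and 2.25% higher, and of the 10508 genes without it 0.999% were lower and 1.91% higher. In siHP1γ against siNS cells with Dex, 18.8% of those with the nonamer were higher and 13.0% lower, against 12.7% and 13.6% of the others. Of the 96 genes with 3 or more nonamers 16.7% were higher and 14.6% lower there. Without Dex, 22.7% of those with the nonamer were higher and 18.7% lower in siHP1γ cells, against 19.3% and 16.4% of the others. The median log2 fold changes were then 0.028 and 0.024. In siPRMT5 against siNS cells with Dex the shares were 26.0% higher and 22.0% lower, against 23.5% and 24.9%. These shares are descriptions, the length of the 3′ UTR moved with them, and its part was not tested.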
